A study of Mus musculus with 5 samples.

Results

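The cells described here came from the 2 libraries labelled as depleted of regulatory T cells (Tregs) with diphtheria toxin. Foxp3, the gene that defines Tregs, goes against that label in the sorted cells: 38.0% and 58.7% had a unique molecular identifier (UMI, 1 counted transcript) of Foxp3 in the libraries labelled Treg-depleted with and without anti-CTLA4, against 1.18% with anti-CTLA4 alone, 1.46% in the untreated tumor library and 0.905% in the naive library. The libraries are called the combined and the toxin library below, after the treatment in their labels. The cells were chosen by the measured values of 2 genes: each had at least 1 UMI of Il2ra and 0 UMIs of Foxp3. There were 452 such cells among the 6529 cells of the toxin libraries and the 20149 cells of all 5 libraries. The library with toxin and anti-CTLA4 antibody held 324 of them among 4343 cells (7.46%, exact 95% interval 6.70 to 8.28%), and the library with toxin alone held 128 among 2186 (5.86%, interval 4.91 to 6.92%). Each is called an Il2ra-positive Foxp3-zero cell below. They were set against the Foxp3-positive cells of the same libraries, 1649 and 1284, and against the double-zero cells with 0 UMIs of both genes, 2370 and 774. Il2ra lies on chromosome 2 (plus strand, 11642807 to 11693193 in GRCm38) and Foxp3 on chromosome X (plus strand, 7573644 to 7595245).

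All libraries were sorted for CD4 and CD45.1 from C57BL/6 mice as SMARTA cells, which carry a transgenic T cell receptor, and read at the 3′ ends of transcripts in droplets. Both toxin libraries came from the inguinal lymph node on the side of the tumor at day 8, with toxin given on days 0 and 2. The combined library also received anti-CTLA4 on days 0, 2 and 5. The labels name MC38 in one protocol and PyMG in another as the tumor, they do not name the allele that makes Tregs sensitive to toxin, and each treatment has 1 library. How many mice were pooled is not given in the sources used here.

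Foxp3 is the transcription factor that defines Tregs, the CD4 T cells that restrain other T cells. Il2ra encodes CD25, the alpha chain that gives the interleukin 2 receptor its high affinity. Tregs carry CD25 all the time, while conventional CD4 T cells put it on for a limited period after their receptor has been engaged. A cell with Il2ra and no detected Foxp3 can therefore be of either kind, and the other genes it holds were compared with both neighbours in the same library.

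The cells of the combined library had a median of 2468 UMIs and those of the toxin library 5208.5. Within them the Il2ra-positive Foxp3-zero cells had medians of 2395 and 5295 UMIs, the Foxp3-positive cells 4599 and 6611.5, and the double-zero cells 1892.5 and 3700.5. Because of these gaps each cell was thinned at random to 1000 UMIs, which left 286 and 125 Il2ra-positive Foxp3-zero cells, 1605 and 1272 Foxp3-positive cells and 2068 and 754 double-zero cells. Levels are in CPM, the thinned UMIs of a gene summed over a class in a library and scaled to a fixed total of UMIs. Where 2 values of a class stand together, they are those of the combined and of the toxin library. The libraries shared 4 cell barcodes, none of them carried by an Il2ra-positive Foxp3-zero cell. The listed genes that mark CD4 T cells were all present in the Il2ra-positive Foxp3-zero cells (1895 and 2032 CPM, 0 of 5 at 0), close to Foxp3-positive cells (1862 and 1953) and double-zero cells (1983 and 2220). Of the 17 B cell markers, 11 and 10 were at 0 in them, and of the 15 markers of macrophages and monocytes 5 and 7. The macrophage and monocyte markers summed to 1066 and 2328 CPM in Il2ra-positive Foxp3-zero cells, 1022 and 1798 CPM in Foxp3-positive cells and 893 and 1125 CPM in double-zero cells, and their part in the results was not tested. At least 2 of these markers were seen in 11.9% and 28.8% of Il2ra-positive Foxp3-zero cells after thinning. The shares were 15.9% and 25.7% in Foxp3-positive cells and 8.80% and 10.3% in double-zero cells. A loose rule, at least 2 markers of 1 other cell type after thinning, took in 653 (16.5%) and 502 (23.3%) cells of the libraries. With at least 3 specific markers of 1 other cell type, 15 and 23 cells of the libraries stood out. Among these, 0 and 2 were Il2ra-positive Foxp3-zero cells. Before thinning, as the classes were set, Il2ra was seen in 0% and 13.0% of them, and after thinning in 0 of 15 and 1 of 23 (4.35%), against 25% and 32.1% of the other cells.

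The values that chose the cells are given as a description. Il2ra stood at 773 and 704 CPM in the Il2ra-positive Foxp3-zero cells, 918 and 846 CPM in Foxp3-positive cells and 0 in double-zero cells. Before thinning the Il2ra-positive Foxp3-zero cells had a median of 1 and 2 Il2ra UMIs, and 183 (56.5%) and 47 (36.7%) of them rested on a single one. Among Foxp3-positive cells the medians were 3 and 5, and 240 (14.6%) and 143 (11.1%) had a single Il2ra UMI. The highest counts were 32 and 28 Il2ra UMIs in Il2ra-positive Foxp3-zero cells and 54 and 46 in Foxp3-positive cells, so that the ranges overlapped. These unthinned counts move with the depth of the classes.

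How often Il2ra came without Foxp3 depended on how deeply a cell was read. In the combined library 130 of 271 Il2ra-positive cells under 2000 UMIs had 0 Foxp3 UMIs (48.0%), against 22.5% from 2000 to under 4000 UMIs, 10.6% from there to under 8000 and 5.56% from 8000 on (25 of 450). In the toxin library the shares were 28.3%, 12.5%, 9.53% and 7.48% in the same bins. Of cells with both genes, 704 of 1386 (50.8%) and 600 of 1147 (52.3%) had no Foxp3 UMI left at 1000 UMIs. The classes were set before thinning, where the Il2ra-positive Foxp3-zero cells had medians of 2395 and 5295 UMIs. The loss at 1000 UMIs therefore does not give how often Foxp3 was missed at the depth that set the classes. How many Il2ra-positive Foxp3-zero cells held a Foxp3 transcript that was not read was not tested.

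**Figure D1:**
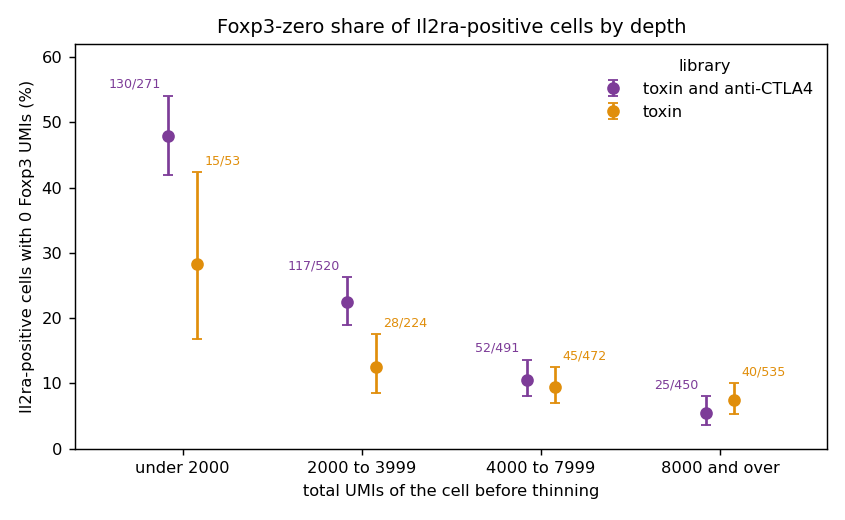
Share of Il2ra-positive cells with 0 Foxp3 UMIs (vertical axis, percent) in 4 bins of total UMIs per cell before thinning, for the combined library (purple) and the toxin library (orange). Points are shares with exact 95% binomial intervals and the labels give cells; the share is 48.0% and 28.3% under 2000 UMIs and 5.56% and 7.48% from 8000 UMIs on.

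Most of the cells lay either among Foxp3-positive cells or among double-zero cells, and fewer lay between. For each thinned cell the 15 nearest cells of its own library were found from 2000 variable genes without Foxp3 and Il2ra. On average 47.5% and 52.9% of the neighbours of an Il2ra-positive Foxp3-zero cell were Foxp3-positive, with SDs over cells of 39.8 and 40.8 percentage points. Foxp3-positive cells made up 40.5% and 59.1% of the thinned cells of the libraries. The mean lay above that share in the combined library and below it in the toxin library. For Foxp3-positive cells the means were 84.9% and 91.8%, and for double-zero cells 6.51% and 6.83%. At most 2 Foxp3-positive neighbours were seen for 114 of 286 (39.9%) and 40 of 125 (32%) Il2ra-positive Foxp3-zero cells, and 12 or more for 112 (39.2%) and 56 (44.8%). The other 60 (21%) and 29 (23.2%) lay between. Among Foxp3-positive cells 85.7% and 94.4% had 12 or more such neighbours, and among double-zero cells 93.3% and 90.3% had at most 2. Across 15 or 30 principal components, 15 or 30 neighbours, fewer variable genes, no cell cycle genes and another draw, the mean stayed between 47.5 and 48.8% and between 52.9 and 54.7%. With 1 library per treatment these positions are a description, and no test was made.

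**Figure D2:**
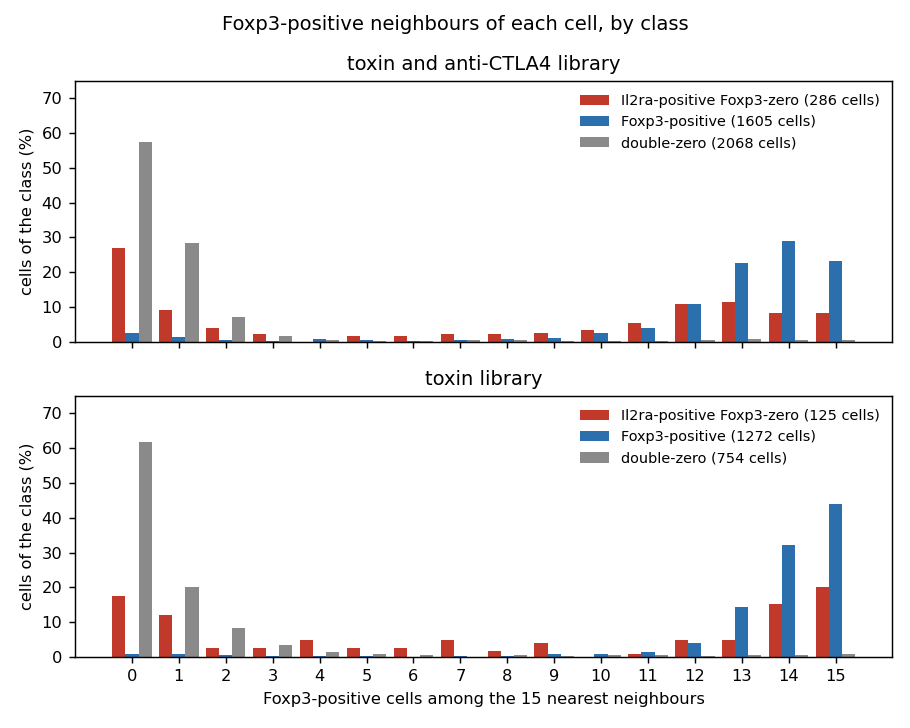
Number of Foxp3-positive cells among the 15 nearest neighbours (horizontal axis) and the percent of each class with that number (vertical axis), for the combined library (top) and the toxin library (bottom). Foxp3-positive cells (blue) pile up at 12 or more and double-zero cells (grey) at 2 or fewer, while the Il2ra-positive Foxp3-zero cells (red) have 39.9% and 32% at the low end and 39.2% and 44.8% at the high end.

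The position moved with the number of Il2ra UMIs. Cells with 1 Il2ra UMI had on average 28.7% and 32.2% Foxp3-positive neighbours, against 70.3% and 65.0% for those with 2 or more. Just outside the rule, Il2ra-positive cells with exactly 1 Foxp3 UMI had 84.1% and 91.0%. Ctla4, which encodes the inhibitory receptor CTLA4 that Tregs carry in large amounts, showed the same order. It stood at 866 and 348 CPM in cells with 1 Il2ra UMI, 1946 and 1165 CPM in those with 2 or more, 2853 and 1437 CPM in Il2ra-positive cells with 1 Foxp3 UMI, and 229 and 160.5 CPM in double-zero cells. Among cells of at least 4000 UMIs the mean share of Foxp3-positive neighbours was 64.8% and 51.5%, against 41.1% and 55.8% below that depth.

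Gene by gene, the 6 sums of 3 classes in 2 libraries were fitted with edgeR's quasi-likelihood test with library as a block, and p-values were adjusted by Benjamini-Hochberg over 6467 genes. A gene was called at an adjusted p under 0.05 with the same direction in both libraries. Against Foxp3-positive cells, 92 genes (1.42% of those tested) were higher and 40 (0.619%) lower in Il2ra-positive Foxp3-zero cells. Against double-zero cells, 342 (5.29%) were higher and 173 (2.68%) lower. The 2 comparisons share the sums of the Il2ra-positive Foxp3-zero cells. With at least 2 Il2ra UMIs required, which left 129 and 79 Il2ra-positive Foxp3-zero cells, edgeR called 3 genes higher and 0 lower than in Foxp3-positive cells, with 365 genes at an unadjusted p under 0.05. DESeq2 called 49 higher and 7 lower against Foxp3-positive cells and 209 higher and 30 lower against double-zero cells, and scaling by library totals gave 149 higher and 27 lower against Foxp3-positive cells. With the classes set after thinning edgeR called 0 genes in either direction against Foxp3-positive cells (454 at an unadjusted p under 0.05), and without library as a block 9 higher and 0 lower (627 unadjusted). With the classes set after thinning the sign against Foxp3-positive cells also turned for Id3, Tox, Itgb1, Trbv13-1, Fosb, Jun, Btg2, Egr3, Slfn5, Ccnd2 and Bub1b. Since the libraries differ in treatment and nothing gives separate mice within them, these p-values measure only how far a class difference repeated between these 2 libraries.

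Genes of Treg identity and suppression stood between the other classes. Their summed level was 6930 and 6072 CPM in Il2ra-positive Foxp3-zero cells, against 9695 and 8944 CPM in Foxp3-positive cells and 3586 and 3058 CPM in double-zero cells. Of 16 tested genes of the list, 0 were higher and 3 lower than in Foxp3-positive cells (median log2 ratio -0.53, against -0.02 for all genes), and 9 were higher and 1 lower than in double-zero cells (median 1.49, against -0.04). The shares over all genes tested were 1.42% higher and 0.619% lower than in Foxp3-positive cells, and 5.29% and 2.68% than in double-zero cells. Ctla4 was at 1353 and 864 CPM in Il2ra-positive Foxp3-zero cells, 2517 and 1960 CPM in Foxp3-positive cells and 229 and 160.5 CPM in double-zero cells. Its log2 ratio was -1.12 ± 0.16 (SE) to Foxp3-positive cells (edgeR adjusted p = 0.000311) and 2.55 ± 0.17 to double-zero cells (edgeR adjusted p = 6.14e-09). In both libraries the summed level of Ctla4 in Il2ra-positive Foxp3-zero cells lay between those of the other classes.

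Tnfrsf18, which encodes the costimulatory receptor GITR, had 776 and 864 CPM in Il2ra-positive Foxp3-zero cells, 1398 and 1341 CPM in Foxp3-positive cells and 270 and 284 CPM in double-zero cells, and it was called against Foxp3-positive cells (edgeR adjusted p = 0.00497) and against double-zero cells (edgeR adjusted p = 1.73e-06). Lrrc32 encodes GARP, which holds latent TGF-beta on the Treg surface. It was 3.40 ± 0.42 log2 units higher than in double-zero cells (edgeR adjusted p = 1.52e-05), at 69.9 and 80.0 CPM against 7.25 and 6.63 CPM, and differed from Foxp3-positive cells (98.4 and 77.0 CPM) by less than the test could call (edgeR adjusted p = 0.627). Il10, an anti-inflammatory cytokine, had 59.4 and 8.00 CPM against 3.38 and 3.98 CPM in double-zero cells, with the toxin value resting on a single UMI. Ikzf2, which encodes the Treg factor Helios, was called in neither comparison: it had 1528 and 1000 CPM in Il2ra-positive Foxp3-zero cells, 1662 and 1410 CPM in Foxp3-positive cells and 1349 and 573 CPM in double-zero cells. Izumo1r, the folate receptor family gene of Tregs and anergic T cells, was the 1 member lower than in double-zero cells, at 671 and 520.0 CPM against 825 and 1220 CPM (edgeR adjusted p = 0.0340).

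Effector Treg genes stood far above their level in double-zero cells. The list summed to 12115 and 15912 CPM in Il2ra-positive Foxp3-zero cells, 19644 and 22746 CPM in Foxp3-positive cells and 3705 and 4631 CPM in double-zero cells. Of 21 tested members 16 were higher and 0 lower than in double-zero cells, and 0 were higher and 5 lower than in Foxp3-positive cells. For all genes tested, 5.29% were higher and 2.68% lower than in double-zero cells, and 1.42% and 0.619% than in Foxp3-positive cells. Gzmb, the cytotoxic protease granzyme B, had 1119 and 2528 CPM, against 2903 and 4899 CPM in Foxp3-positive cells and 119 and 67.6 CPM in double-zero cells. Klrg1, a lectin-like receptor of terminally differentiated effector cells, had 66.4 and 80.0 CPM, against 199 and 333 CPM in Foxp3-positive cells and 7.25 and 15.9 CPM in double-zero cells. Both genes thus separated all 3 classes in both libraries, and both differences of each were called. The lower calls against Foxp3-positive cells also took in Tnfrsf9 and Tnfrsf4, the costimulatory receptors 4-1BB and OX40, at log2 ratios of -1.26 ± 0.17 for Tnfrsf9 and -1.02 ± 0.17 for Tnfrsf4.

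Other genes far above double-zero cells were not called against Foxp3-positive cells. Socs2, a feedback inhibitor of cytokine signalling induced through STAT5, had 255 and 192 CPM in Il2ra-positive Foxp3-zero cells, 292 and 356 CPM in Foxp3-positive cells and 12.6 and 10.6 CPM in double-zero cells. Itgae encodes the integrin CD103, which binds E-cadherin. It had 175 and 336 CPM, against 353 and 395 CPM in Foxp3-positive cells and 11.1 and 11.9 CPM in double-zero cells. Neb, which encodes the muscle protein nebulin, had 182 and 144 CPM, against 194 and 179 CPM in Foxp3-positive cells and 7.25 and 7.96 CPM in double-zero cells. The log2 ratios to double-zero cells were 4.29 ± 0.28 for Socs2, 4.35 ± 0.30 for Itgae and 4.51 ± 0.32 for Neb, and all 3 were called. A missed call against Foxp3-positive cells does not show that their levels were equal.

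**Figure D3:**
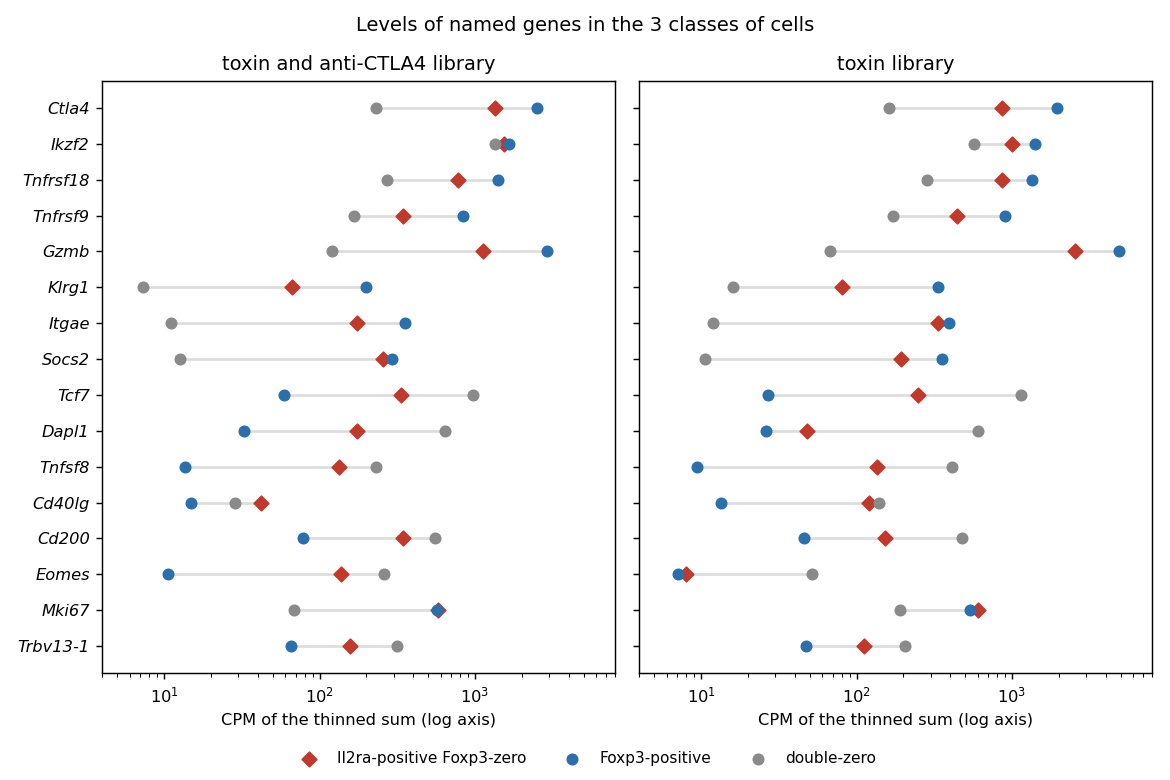
CPM of the thinned sums (horizontal log axis) of 16 genes in Il2ra-positive Foxp3-zero cells (red diamonds), Foxp3-positive cells (blue) and double-zero cells (grey), for the combined library (left) and the toxin library (right). The diamonds of Ctla4 (1353 and 864 CPM) lie between both other classes, those of Tcf7 (332 and 248 CPM) do too with the classes in the opposite order, and Mki67 (573 and 600.0 CPM) lies beside Foxp3-positive cells (572 and 536 CPM).

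Several genes low in Foxp3-positive cells were higher in Il2ra-positive Foxp3-zero cells. The follicular helper (Tfh) list summed to 3105 and 2344 CPM in them, against 1645 and 1432 CPM in Foxp3-positive cells and 5510 and 5168 CPM in double-zero cells. Of 14 tested members 7 were higher and 0 lower than in Foxp3-positive cells, and 1 was higher and 7 lower than in double-zero cells. All genes tested gave 1.42% higher and 0.619% lower than in Foxp3-positive cells, and 5.29% and 2.68% than in double-zero cells. Tcf7 encodes the transcription factor TCF1 of naive, memory and Tfh cells. It had 332 and 248 CPM, against 59.2 and 26.7 CPM in Foxp3-positive cells and 966 and 1139 CPM in double-zero cells. Its log2 ratio was 2.66 ± 0.28 to Foxp3-positive cells (edgeR adjusted p = 9.72e-06) and -1.81 ± 0.23 to double-zero cells (edgeR adjusted p = 2.25e-05). Cd200, a surface ligand of Tfh and other activated T cells, had 343 and 152 CPM, against 78.5 and 45.6 CPM in Foxp3-positive cells and 549 and 475 CPM in double-zero cells. Id3, an inhibitor of E proteins, had 171 and 120.0 CPM, against 52.3 and 28.3 CPM in Foxp3-positive cells, a direction that turned with the classes set after thinning, and 510.2 and 497 CPM in double-zero cells. Pdcd1, the gene of the inhibitory receptor PD-1, had 66.4 and 64.0 CPM against 18.1 and 11.8 CPM in Foxp3-positive cells (edgeR adjusted p = 0.00497). The receptor of the B cell follicle, Cxcr5, was not called in either comparison, at 45.5 and 32 CPM against 13.1 and 7.86 CPM in Foxp3-positive cells and 67.7 and 102 CPM in double-zero cells.

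The naive and homing list followed the same order, at 4661 and 3840 CPM, against 3485 and 3312 CPM in Foxp3-positive cells and 7756 and 6639 CPM in double-zero cells. Of 15 tested members 5 were higher and 0 lower than in Foxp3-positive cells, and 1 was higher and 7 lower than in double-zero cells. Among all genes tested, 1.42% were higher and 0.619% lower than in Foxp3-positive cells, and 5.29% and 2.68% than in double-zero cells. Bach2, a repressor that keeps T cells from effector differentiation, had 55.9 and 24.0 CPM against 4.36 and 3.14 CPM in Foxp3-positive cells and 89.5 and 61.0 CPM in double-zero cells. Dapl1, a gene of resting T cells, had 175 and 48.0 CPM against 32.4 and 25.9 CPM in Foxp3-positive cells and 639 and 607 CPM in double-zero cells. The sum of the Il2ra-positive Foxp3-zero cells in the toxin library held 125000 UMIs. The 24.0 CPM of Bach2 and the 48.0 CPM of Dapl1 there therefore rest on few UMIs, as does Bach2 in Foxp3-positive cells. Il7r, the alpha chain of the interleukin 7 receptor, was the 1 member above double-zero cells, at 350 and 416 CPM against 168 and 171 CPM, and its 456 and 424 CPM in Foxp3-positive cells did not give a call.

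Ligands through which helper cells act on other cells were higher than in Foxp3-positive cells. Tnfsf8, which encodes the CD30 ligand, had 133 and 136 CPM in Il2ra-positive Foxp3-zero cells, against 13.7 and 9.43 CPM in Foxp3-positive cells and 231 and 411 CPM in double-zero cells. Its log2 ratio to Foxp3-positive cells was 3.45 ± 0.36 (edgeR adjusted p = 9.72e-06). Cd40lg encodes CD40 ligand, the signal that helper cells give to B cells and dendritic cells. It had 42.0 and 120.0 CPM, against 15 and 13.4 CPM in Foxp3-positive cells (edgeR adjusted p = 0.0287) and 28.5 and 139 CPM in double-zero cells (edgeR adjusted p = 0.892). Of the 7 tested helper genes, Tnfsf8 and Cd40lg were higher than in Foxp3-positive cells and 0 lower, against 1.42% and 0.619% of all genes. Ifng, the gene of interferon gamma, was higher than in double-zero cells, at 42.0 and 256 CPM against 22.2 and 22.6 CPM (edgeR adjusted p = 0.00476). Few cells carried it: before thinning 1 of 324 cells held 56 of 106 Ifng UMIs (52.8%) in the combined library, and in the toxin library 1 of 128 held 68 of 225 (30.2%) and 11 had at least 5. It was not called against Foxp3-positive cells, where it had 63.6 and 47.2 CPM, and the libraries went opposite ways. Il2 itself was near its floor, at 3.50 and 16 CPM, against 8.10 and 2.36 CPM in Foxp3-positive cells and 8.70 and 9.28 CPM in double-zero cells, and was not tested.

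For Th1 and cytotoxic genes, 4 of 18 tested members were higher and 1 lower than in Foxp3-positive cells, and 4 were higher and 0 lower than in double-zero cells. Over all genes tested, 1.42% were higher and 0.619% lower than in Foxp3-positive cells, and 5.29% and 2.68% than in double-zero cells. The list summed to 3395 and 5912 CPM, below the 4807 and 7043 CPM of Foxp3-positive cells. Double-zero cells had 3108 and 1531 CPM. Bhlhe40, a transcription factor of cytokine-producing T cells, had 76.9 and 168 CPM against 32.4 and 15.7 CPM in Foxp3-positive cells and 80.7 and 67.6 CPM in double-zero cells. The size of other differences varied between the libraries. Cxcr6, a chemokine receptor of tissue effector cells, was 10.3-fold above Foxp3-positive cells in the combined library and 66.1-fold in the toxin library. These folds rest on 11 and 26 thinned Cxcr6 UMIs in the Il2ra-positive Foxp3-zero cells, and on few in Foxp3-positive cells. Before thinning in the toxin library, 29 of the 34 with at least 5 Ifitm1 UMIs had a Cxcr6 UMI, against 10 of the other 94. Eomes, a T-box factor of effector and memory cells, was 12.9-fold above them in the combined library (136 against 10.6 CPM) and 1.13-fold in the toxin library, where its 8.00 CPM rests on 1 UMI.

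Most tested genes of the G2M phase were higher than in double-zero cells. Most also leaned lower than in Foxp3-positive cells, though few were called. Mki67, a marker of proliferating cells, had 573 and 600.0 CPM in Il2ra-positive Foxp3-zero cells, 572 and 536 CPM in Foxp3-positive cells and 68.7 and 190 CPM in double-zero cells. The log2 ratio to double-zero cells was 2.41 ± 0.27 (edgeR adjusted p = 4.15e-06). Of 28 tested genes of the G2M phase, 22 were higher and 0 lower than in double-zero cells, and 0 were higher and 2 lower, Cenpa and Bub1b, than in Foxp3-positive cells. For the S phase, 12 of 26 were higher than in double-zero cells and 0 were called in either direction against Foxp3-positive cells. The shares of all genes tested were 5.29% higher and 2.68% lower than in double-zero cells, and 1.42% and 0.619% than in Foxp3-positive cells. Against Foxp3-positive cells, 26 of 28 G2M genes had a negative log2 ratio (median -0.51, against -0.02 for all genes). For S phase genes these values were 25 of 26 and -0.44. The G2M list summed to 4941 and 5168 CPM in Il2ra-positive Foxp3-zero cells. In Foxp3-positive cells it had 6698 and 6023 CPM, and in double-zero cells 2316 and 3007 CPM. At least 2 G2M genes were seen in 52.4% and 52.8% of the thinned Il2ra-positive Foxp3-zero cells, 62% and 56.8% of Foxp3-positive cells and 32.2% and 35.5% of double-zero cells. Without thinning the shares were 67.0% and 80.5%, 84.8% and 85.7%, and 56.0% and 69.6%. When the G2M-positive cells were left out, 116 genes were called higher and 23 lower than in double-zero cells.

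Of 19 migration and adhesion genes, 12 were higher and 2 lower than in double-zero cells, and Itgb1, the integrin beta 1 chain, was the 1 called against Foxp3-positive cells, at 255 and 352 CPM against 107 and 101 CPM, a direction that turned with the classes set after thinning. Beside these and the next counts, all genes tested gave 5.29% higher and 2.68% lower than in double-zero cells. Against Foxp3-positive cells the shares were 1.42% higher and 0.619% lower. Of 17 interferon gamma-induced genes, 7 were higher than in double-zero cells and 3 lower than in Foxp3-positive cells. Those 3 encode guanylate-binding and immunity-related GTPases: Gbp2, Gbp7 and Iigp1. Gbp2 had 311 and 248 CPM, against 446 and 521 CPM in Foxp3-positive cells and 61.4 and 98.1 CPM in double-zero cells. Bcl2, the survival gene, was 2.02 ± 0.25 log2 units above Foxp3-positive cells (178 and 160.0 CPM against 43.6 and 33.8 CPM) and was not called against double-zero cells (268 and 252 CPM). Of 11 dissociation stress genes, 3 were higher than in Foxp3-positive cells (Fosb, Jun and Btg2) and 4 lower than in double-zero cells. The list summed to 5206 and 3120 CPM in Il2ra-positive Foxp3-zero cells, 3565 and 2894 CPM in Foxp3-positive cells and 7510 and 4135 CPM in double-zero cells, and its part in the other results was not tested. Of the 25 lists, 20 had a summed level between that of Foxp3-positive and double-zero cells in both libraries. The share of all genes lying between was not determined, and the lists were chosen with earlier results known. The count is thus a description and singles out no list.

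The transgenic receptor gave another view. SMARTA cells use the variable genes Trbv13-1 and Trav14d-3-dv8, which other T cells can use as well, and 3′ reads rarely reach them, so that a cell without such a UMI is not shown to lack the receptor. After thinning, 46 of 286 (16.1%, interval 12 to 20.9%) and 16 of 125 (12.8%, interval 7.5 to 20.0%) Il2ra-positive Foxp3-zero cells had a UMI of either gene. The shares were 6.92% and 5.82% in Foxp3-positive cells and 31.6% and 22.4% in double-zero cells. In the cells with 3 or more markers of another type it was 1 of 15 (6.67%) and 0 of 23 after thinning and 20% and 4.35% before it, at median depths of 5412 and 8367 UMIs. Unthinned shares were 29.6% and 36.7% for Il2ra-positive Foxp3-zero cells, 18.6% and 21.4% for Foxp3-positive cells and 51.9% and 57.9% for double-zero cells. Trbv13-1 (chromosome 6, 41116007 to 41116468, plus strand) had 157 and 112 CPM, against 65.4 and 47.2 CPM in Foxp3-positive cells (edgeR adjusted p = 0.0126) and 316 and 204 CPM in double-zero cells (edgeR adjusted p = 0.00963).

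The Il2ra-positive Foxp3-zero cells differed among themselves along this line. Those with a receptor UMI before thinning had 18.4% and 29.1% Foxp3-positive neighbours, against 60.8% and 67.3% for those without. Finding a receptor UMI before thinning depends on the depth of a cell, and the part of depth in this split was not tested. Ctla4 stood at 678 and 404 CPM in cells with a receptor UMI and 1663 and 1141 CPM in those without. The Treg identity list had 4544 and 3426 CPM in cells with a receptor UMI, against 8026 and 7667 CPM in those without. Tcf7 went the other way, at 600.0 and 426 CPM against 209 and 141 CPM, and so did Tnfsf8, at 267 and 319 CPM against 71.4 and 25.6 CPM. The effector Treg list had 6622 and 14170 CPM in cells with a receptor UMI and 14638 and 16962 CPM in those without, so that the gap was wide in the combined library and narrow in the toxin library. Foxp3-positive cells with a receptor UMI still had 74.7% and 86.5% Foxp3-positive neighbours, and double-zero cells with one had 4.40% and 5.69%. When all cells with a receptor UMI were left out of every class, 50 genes were called higher and 14 lower than in Foxp3-positive cells.

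**Figure D4:**
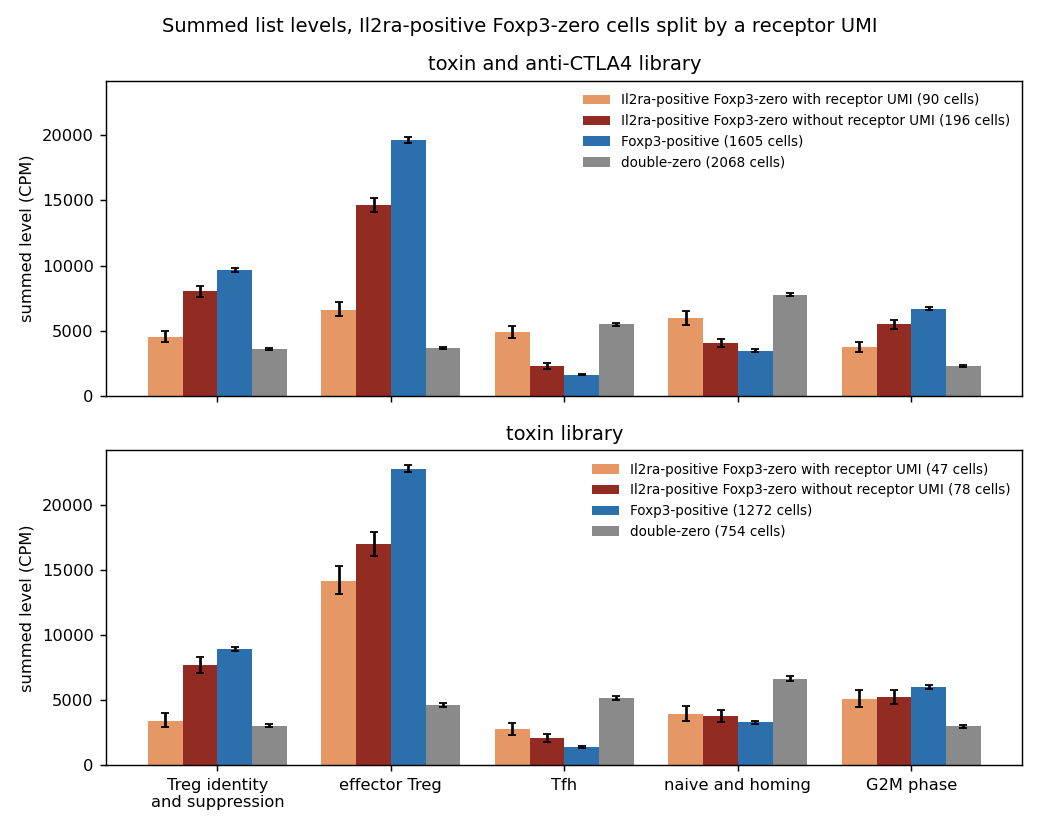
Summed CPM (vertical axis) of 5 gene lists in Il2ra-positive Foxp3-zero cells with a receptor UMI (light orange) and without one (dark red), Foxp3-positive cells (blue) and double-zero cells (grey), for the combined library (top) and the toxin library (bottom); bars carry exact 95% Poisson intervals for counting error. The Treg identity bar is 4544 and 3426 CPM with a receptor UMI and 8026 and 7667 CPM without, beside 3586 and 3058 CPM in double-zero cells.

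With toxin and anti-CTLA4 the Il2ra-positive Foxp3-zero cells had higher levels of Sox4, Itga4 and Eomes, and lower levels of Ifitm1, Ifng and Cxcr6, than with toxin alone. Of 3425 genes with enough UMIs, 183 (5.34%) were at least 2-fold higher with toxin and anti-CTLA4 than with toxin alone and 66 (1.93%) at least 2-fold lower. There is 1 library per treatment, so no test was made, and the exact 95% intervals below cover counting error only. The Treg identity list had 6930 CPM with toxin and anti-CTLA4 and 6072 CPM with toxin, a ratio of 1.14, and the G2M list a ratio of 0.956. Th1 and cytotoxic genes summed to 3395 CPM with both treatments, against 5912 CPM with toxin alone, with 8 of 13 members at least 2-fold lower and 1 higher. The ratio of this list was 0.574 in these cells, 0.682 in Foxp3-positive cells and 2.03 in double-zero cells. Dissociation stress genes summed to 5206 CPM, against 3120 CPM, with 5 of 11 at least 2-fold higher and 1 lower. Their ratio was 1.67 in these cells, 1.23 in Foxp3-positive cells and 1.82 in double-zero cells. Whether either list difference is particular to the Il2ra-positive Foxp3-zero cells was not tested. The libraries also differ in depth (median 2395 and 5295 UMIs in these cells), and the part of depth or of dissociation stress in the results was not tested.

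Among single genes, Sox4, a transcription factor downstream of TGF-beta, had 503 CPM with toxin and anti-CTLA4 and 24.0 CPM with toxin alone, a ratio of 21 (interval 7.04 to 103). In double-zero cells it had 1005 CPM and 217 CPM. Itga4, the integrin alpha 4 chain, had 245 CPM against 8.00 CPM in these cells (a single UMI), and 621 CPM against 79.6 CPM in double-zero cells. Myb, a transcription factor of progenitor-like T cells, had 413 CPM against 96.0 CPM, a ratio of 4.30. Eomes had 136 CPM against 8.00 CPM, and 260 CPM against 51.7 CPM in double-zero cells. The other direction was led by Ifitm1, an interferon-induced membrane protein gene (chromosome 7, 140967221 to 140969825, plus strand). It had 97.9 CPM with toxin and anti-CTLA4 and 1832 CPM with toxin, 18.7-fold lower (interval 12.6 to 28.8). Ifng was 6.10-fold lower with toxin and anti-CTLA4, Cxcr6 5.41-fold, Gzma, the gene of granzyme A, 4.86-fold and the glycolytic enzyme gene Eno1 4.77-fold. Eno1 was also lower in the other classes, at 111 CPM against 547 CPM in Foxp3-positive cells and 75 CPM against 393 CPM in double-zero cells, and whether any of these differences is particular to the Il2ra-positive Foxp3-zero cells was not tested.

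**Figure D5:**
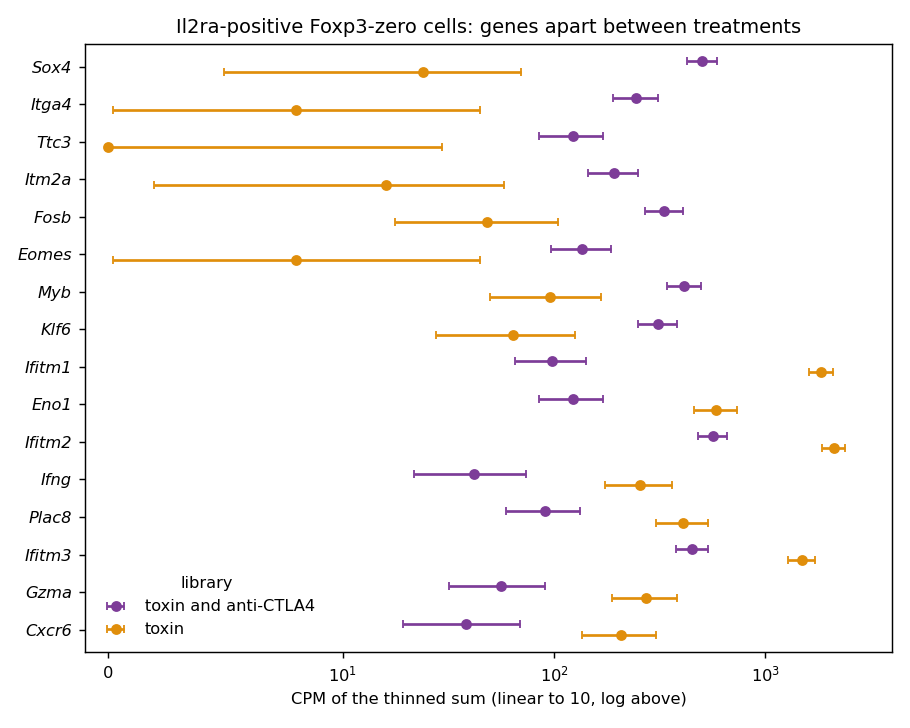
CPM (horizontal axis, linear to 10 and log above) of the 8 highest and 8 lowest genes between the libraries in Il2ra-positive Foxp3-zero cells, with toxin and anti-CTLA4 (purple) and toxin alone (orange). Bars are exact 95% Poisson intervals for counting error; Sox4 is at 503 against 24.0 CPM and Ifitm1 at 97.9 against 1832 CPM.

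The Ifitm1 level came from few cells. At least 5 Ifitm1 UMIs before thinning were seen in 3 of 324 Il2ra-positive Foxp3-zero cells with toxin and anti-CTLA4 and in 34 of 128 with toxin. The same held for 8 of 1649 and 28 of 1284 Foxp3-positive cells and 15 of 2370 and 30 of 774 double-zero cells. In the toxin library 24 of the 34 (70.6%) had a receptor UMI, against 23 of the other 94 (24.5%). The 34 had a median of 8015.5 UMIs and the other 94 of 4588, and both the receptor share and the number of Ifitm1 UMIs were taken before thinning. These cells were picked out after their values had been seen and are described without a test. In CPM before thinning, the 34 cells had 134 for Ctla4 and 124 for Ikzf2, against 880.0 and 798 in the other 94. They had 635 for Ifng, 488 for Cxcr6, 272 for Cd40lg, 419 for Bhlhe40 and 1392 for Lgals7, the gene of galectin 7, against 45.3, 115, 92.1, 62.9 and 123. Across both libraries Ifitm1 was called higher than in Foxp3-positive cells (97.9 and 1832 CPM against 34.9 and 92.8 CPM, edgeR adjusted p = 1.53e-05) and than in double-zero cells (65.8 and 320 CPM, edgeR adjusted p = 0.000409). The ratios were 2.81 and 19.7 over Foxp3-positive cells and 1.49 and 5.73 over double-zero cells, so that the toxin library decided their size. In the combined library a single cell of the 324 held 55 of 76 Ifitm1 UMIs before thinning (72.4%). The ratios of that library, and with them the shared direction, thus rest on few cells.

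In the libraries without toxin, where few cells had Foxp3, the same rule gave 68 with anti-CTLA4 alone, 29 in the untreated tumor library and 99 in the naive spleen library. Of all Il2ra-positive cells 81.9%, 96.7% and 86.1% were Foxp3-zero there, against 18.7% and 9.97% in the toxin libraries. After thinning (68, 27 and 99 cells), their Treg identity list had 3265, 2593 and 2051 CPM and their Ctla4 88.2, 185 and 20.2 CPM, all below the Il2ra-positive Foxp3-zero cells of both toxin libraries (6930 and 6072 CPM for the list, 1353 and 864 CPM for Ctla4). Tcf7 had 868, 1259 and 1081 CPM there, against 332 and 248 CPM with toxin. A single Il2ra UMI was all that 72.1%, 69.0% and 90.9% of these cells had before thinning, against 56.5% and 36.7% in the toxin libraries. The groups are thus unlike mixtures, and the part of this in the levels was not tested. Each of these groups is 1 library, and the naive one is another organ, so no test was made.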

How the data were processed

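The values are raw UMI counts of 11924 genes in each cell, deposited 1 table per library and made by the authors with bcl2fastq 2.20, Cell Ranger 6.0.0 on mm10, R 4.1.1 and Seurat 4.0.4, per the submitters' processing notes. Genes not in these rows, such as Cd3e and Trac, were not analysed here, and CPM refer to the listed genes. No doublet caller was run and doublets stayed in, so a cell of mixed content could carry genes of 2 classes.

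Cells were put in classes by their UMIs before thinning. Each was thinned to 1000 UMIs (seed 1), which left out 38 and 3 Il2ra-positive Foxp3-zero cells, 44 and 12 Foxp3-positive cells and 302 and 20 double-zero cells. Sums per library and class were tested with edgeR 4.0.16 (limma 3.58.1, R 4.3.3; TMM, mean of at least 25 CPM, library as a block). Foxp3 and Il2ra were not tested. The computation was checked on simulated data. DESeq2 1.42.0 was an alternative. Neighbours used scanpy 1.11.5 and scikit-learn 1.9.0 with 30 principal components per library. Python 3.11.15, numpy 2.4.6, pandas 2.3.3, scipy 1.17.1 and matplotlib 3.10.9 did the rest. Between treatments, genes with at least 25 CPM on average and at least 30 UMIs over both sums were compared. Intervals are exact (Clopper-Pearson or Poisson, 95%) and cover counting error only.

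The cells, gene lists and alternatives were chosen with earlier results of these data known. The naming rule took the 10 highest and 10 lowest called genes of each comparison, 2 to 4 members per list, the 8 highest and 8 lowest between treatments and 23 fixed genes. Other names (Lgals7, Cenpa, the remaining called list members) were chosen after their values were seen. Coordinates are from GENCODE for GRCm38. The labels carry no replicate numbers.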

Additional observations from a re-analysis of the deposited data

Results flagged for a closer look

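The difference between Il2ra-positive Foxp3-zero and double-zero cells went opposite ways in the libraries for Slamf7, which encodes a receptor of the SLAM family. The ratio was 0.679 (exact 95% interval 0.483 to 0.933) with toxin and anti-CTLA4 and 3.19 (interval 1.70 to 5.82) with toxin alone. Slamf7 had 147 and 144 CPM in Il2ra-positive Foxp3-zero cells, against 216 and 45.1 CPM in double-zero cells. The difference between the ratios was not tested, since each treatment has 1 library.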

How the results depend on the processing

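The tests rest on 2 libraries with different treatments and on 411 thinned Il2ra-positive Foxp3-zero cells, which limits what could be called. Leaving out a library leaves 1, which allows ratios and no test. Of 145 called results for named genes, 143 kept their call and direction with library totals, 142 of 143 without cells of 3 specific markers of another type, 108 with another random draw, 95 with DESeq2, 91 of 138 with classes after thinning (12 turned), 87 of 141 with at least 2 Il2ra UMIs (3 turned), 70 of 139 at 4000 UMIs (1 turned), 52 without the block and 43 of 139 in receptor cells only (1 turned).

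Genes higher than in Foxp3-positive cells (92) numbered 149 with library totals, 9 without library as a block, 0 with classes set after thinning (454 of either direction at an unadjusted p under 0.05), 3 with at least 2 Il2ra UMIs, 26 at 4000 UMIs or more, 50 without receptor cells, 37 in receptor cells only, 58 thinned to 500 UMIs and 49 with DESeq2. Genes lower (40) numbered 99 without the filter, 0 without the block (627 of either direction unadjusted), 0 with classes after thinning, 0 with at least 2 Il2ra UMIs, 14 at 4000 UMIs, 98 without G2M-positive cells, 14 without receptor cells and 7 with DESeq2. Genes higher than in double-zero cells (342) numbered 117 without the block, 684 with classes after thinning, 108 at 4000 UMIs, 116 without G2M-positive cells, 30 in receptor cells only, 601 without thinning and 209 with DESeq2. Genes lower (173) numbered 20 without the block, 636 with classes after thinning, 328 with at least 2 Il2ra UMIs, 40 at 4000 UMIs, 23 without G2M-positive cells, 80 without cells of other-type markers, 294 without receptor cells, 1 in receptor cells only, 109 thinned to 500 UMIs, 487 without thinning and 30 with DESeq2.

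The receptor share (16.1 and 12.8%) was 8.33 and 4.35% with classes after thinning, 7.72 and 6.25% at 500 UMIs and 29.6 and 36.7% without thinning. In the combined library it was 9.30% with at least 2 Il2ra UMIs and 2.60% at 4000 UMIs. The G2M-positive share (52.4 and 52.8%) was 76.6 and 65.9% at 4000 UMIs, 39.2 and 39.1% at 500 UMIs and 67.0 and 80.5% without thinning. In the combined library it was 64.1% with classes after thinning, 66.7% with at least 2 Il2ra UMIs and 38.1% with 3 genes required. Between treatments, genes higher with both (183) numbered 2623 without a filter, 83 at 100 CPM and 114 without G2M-positive cells, and genes lower (66) 1325 without a filter and 39 without G2M-positive cells.

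Log2 ratios to Foxp3-positive cells changed sign with classes after thinning for Bub1b (0.87), Ccnd2 (0.044), Egr3 (-0.39), Itgb1 (-0.079), Btg2 (-0.22), Slfn5 (-0.045), Fosb (-0.21), Trbv13-1 (-0.23), Id3 (-0.18), Tox (-0.14) and Jun (-0.31), and with at least 2 Il2ra UMIs for Eomes (-0.11), Btg2 (-0.041) and Tox (-0.19). Ratios to double-zero cells did so for Ifitm1 (-0.51) with classes after thinning, Gbp5 (-0.89) in receptor cells only and Nr4a1 (0.37) at 4000 UMIs. With classes after thinning, cells whose Foxp3 UMIs were lost enter the class. Otherwise the cause was not tested.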

Other observations

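Il13, the gene of a type 2 cytokine, had 379 UMIs before thinning in 7 of the 128 Il2ra-positive Foxp3-zero cells of the toxin library, 261 of them in 1 cell, and 0 UMIs in the 324 cells of the combined library. Markers of innate lymphoid cells 2, a list that holds Il13, summed to 311 and 648 CPM in Il2ra-positive Foxp3-zero cells, 546 and 700 CPM in Foxp3-positive cells and 170 and 251 CPM in double-zero cells, with 3 and 1 of 8 at 0 in the Il2ra-positive Foxp3-zero cells. Igkc, an immunoglobulin gene of plasma cells, was called lower in Il2ra-positive Foxp3-zero cells than in Foxp3-positive cells and than in double-zero cells, at 178 and 128 CPM, against 447 and 540.1 CPM in Foxp3-positive cells and 716 and 2845 CPM in double-zero cells. Most plasma cell markers were not at 0 in the Il2ra-positive Foxp3-zero cells (6 of 9 and 5 of 9 seen). These markers summed to 1706 and 1488 CPM there, against 2783 and 2950 CPM in Foxp3-positive cells and 1394 and 4912 CPM in double-zero cells. Few double-zero cells carried the Igkc level. Before thinning 1 cell held 6709 of 19295 UMIs (34.8%) in the combined library and 1 held 9992 of 42919 (23.3%) in the toxin library. The share of cells with an Igkc UMI had another order than the CPM, at 16.4% and 23.4% of Il2ra-positive Foxp3-zero cells, 42.5% and 49.3% of Foxp3-positive cells and 6.16% and 12.5% of double-zero cells. The part of free RNA in these values was not tested.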
